A study of Mus musculus with 8 samples.

Results

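The scavenger receptor Ackr3 and 9 chemokine genes (Cxcl12, Ccl2, Ccl7, Ccl5, Cxcl10, Cxcl1, Cxcl5, Cxcl16 and Cx3cl1) were followed through RNA sequencing of a mouse fibroblastic reticular cell (FRC) line, the stromal cell that builds the scaffold of the lymph node. The 10 genes were taken by symbol from the 55367 genes of the count table, and each symbol was found once. Of these, 8 had at least 10 counts in at least 3 libraries and entered the tests with 12137 genes in all, whereas Cxcl10 and Cxcl5 did not. Ackr3 fell under both lactic acid and tumor-conditioned medium, and Cxcl12, Cxcl1 and, by a small margin, Cx3cl1 changed in tumor-conditioned medium against the medium conditioned by FRCs.

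The study asked how the secreted products of a melanoma, lactic acid among them, act on FRCs. The cells were 1 line derived from lymph nodes of p53 ER/ER mice on the C57BL/6 background, a genotype that all 4 groups shared. Vehicle cells received RPMI medium with water, LA cells (15mMLA in the labels) RPMI with 15 mmol/L lactic acid, CCM cells medium that FRCs themselves had conditioned for 24 hours, and TCM cells medium conditioned in the same way by B16.F10 mouse melanoma cells. All cultures held 2% serum, lasted 4 days with fresh medium after 48 hours, and gave 2 libraries per group, described by the study as biological replicates of the line.

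Chemokines are small secreted or membrane-tethered proteins that draw leukocytes along a gradient by binding receptors on their surface. In lymph nodes, FRCs are known for making the homeostatic chemokines that place lymphocytes and dendritic cells, and stromal Cxcl12 holds cells that carry the receptor Cxcr4. Ackr3 binds Cxcl12 without the classical G protein signal and takes it into the cell for degradation, so that it lowers the amount of free ligand.

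The 8 libraries held 8232889 to 14107964 counts. Values below are CPM, that is counts divided by the library size (adjusted by TMM factors) and scaled up by a fixed factor, and 3 counts corresponded to 0.211 to 0.354 CPM, depending on the library. A gene was called when edgeR's quasi-likelihood test gave a Benjamini-Hochberg adjusted p under 0.05 over the 12137 genes and the log2 fold change was beyond 0.39. An exact permutation test of 2 libraries against 2 cannot go below p = 0.333, so the p-values below come from a fit that shares its estimate of spread across genes and all 8 libraries. They measure the spread between libraries of 1 line. Of 10 FRC markers, Col1a1, Pdgfrb and Pdpn were among the 7 tested. The list summed to 13432 to 18043 CPM, most of it Col1a1, with 131525 to 244327 counts per library against 2538 to 5445 of Pdgfrb. The cytokine Il7 had 5 to 26 counts and Thy1 had 1 to 16. The lymph node chemokine Ccl21a was at 0 in every library, and Ccl19 had 1 count in a single library. Summed blood and immune cell markers lay at 1.199 to 3.37 CPM with 5 of 8 at 0 throughout, and melanoma markers at 1.81 to 3.66 CPM, mostly Pmel and Mitf, which were found in every library. The melanocyte pigment genes Tyrp1 and Dct were seen in TCM alone, with 6 and 3 counts of Tyrp1 and 1 count of Dct in each TCM library against 0 in the other 6, and their part in the TCM results was not tested.

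The start regions of 4 of the genes are shown because the results turn on Ackr3, Cxcl12 and Cxcl1, and because Cxcl10 is the textbook interferon-induced chemokine. RefSeq windows on GRCm38.p6, running from 250 bases before the start site to 50 after it, were found for 5 of the 10 genes, and the 4 printed are Ackr3 (chr1:90203730-90204029, plus strand), Cxcl12 (chr6:117168285-117168584, plus strand), Cxcl1 (chr5:90890995-90891294, plus strand) and Cxcl10 (chr5:92348840-92349139, minus strand). Each reads 5′ to 3′ on the strand of the gene, and capitals mark matches to the kappa B motif, bound by NF-kappaB, or to the interferon-stimulated response element.
Ackr3: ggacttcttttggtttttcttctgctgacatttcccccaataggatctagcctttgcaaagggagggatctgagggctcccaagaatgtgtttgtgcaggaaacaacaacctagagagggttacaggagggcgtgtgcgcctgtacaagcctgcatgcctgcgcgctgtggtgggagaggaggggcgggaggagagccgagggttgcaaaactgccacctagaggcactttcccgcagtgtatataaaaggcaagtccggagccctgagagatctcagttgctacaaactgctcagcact
Cxcl12: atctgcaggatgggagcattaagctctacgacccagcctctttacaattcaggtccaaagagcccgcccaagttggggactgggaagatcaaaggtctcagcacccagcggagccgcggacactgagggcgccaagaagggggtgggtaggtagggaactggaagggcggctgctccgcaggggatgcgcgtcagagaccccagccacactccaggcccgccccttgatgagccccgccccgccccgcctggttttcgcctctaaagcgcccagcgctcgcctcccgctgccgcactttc
Cxcl1: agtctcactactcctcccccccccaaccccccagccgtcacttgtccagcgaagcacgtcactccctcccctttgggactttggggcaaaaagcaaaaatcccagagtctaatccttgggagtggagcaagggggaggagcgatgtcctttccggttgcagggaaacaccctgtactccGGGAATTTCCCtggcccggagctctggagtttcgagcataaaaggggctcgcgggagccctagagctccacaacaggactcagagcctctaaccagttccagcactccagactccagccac
Cxcl10: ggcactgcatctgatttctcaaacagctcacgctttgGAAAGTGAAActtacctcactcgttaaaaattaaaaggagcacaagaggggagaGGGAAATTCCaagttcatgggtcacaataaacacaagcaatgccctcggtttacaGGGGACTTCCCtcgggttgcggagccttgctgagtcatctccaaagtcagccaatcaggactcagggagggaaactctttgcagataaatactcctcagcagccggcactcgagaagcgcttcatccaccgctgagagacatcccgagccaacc

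The Cxcl1 window held a kappa B match at -71 to -62 on its own strand that overlapped one at -70 to -61 on the other, counted from the start site. The Cxcl10 window held an interferon-stimulated response element (letters TTTCNNTTTC, on the other strand) at -213 to -204, a kappa B match at -159 to -150 and overlapping kappa B matches within -104 to -94. Searched on both strands, kappa B was present in 8.46% of all 32851 windows of this length, the interferon-stimulated response element in 3.44%, and the gamma-activated site (TTCNNNGAA) in 8.30%. None of these letters was found in the windows of Ackr3, Cxcl12 and Cx3cl1. A match is a description of the letters and does not show that a factor bound there.

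Ackr3 (GRCm38 chr1:90203980-90216751, plus strand) was highest in vehicle cells, at 29.9 and 31.7 CPM. It stood at 21.9 and 19.0 CPM in CCM, at 7.32 and 9.30 CPM in LA, and at 1.89 and 3.27 CPM in TCM, where 18 and 30 counts lay behind the values. No group overlapped another, and the 4 groups ran in the order vehicle, CCM, LA and TCM. Against CCM, Ackr3 in TCM was 7.93-fold lower (log2 fold change -2.99, SE 0.225, adjusted p = 1.89e-05 by edgeR's quasi-likelihood test). Against vehicle, Ackr3 in LA was 3.64-fold lower (log2 fold change -1.86, SE 0.175, adjusted p = 0.000479), which placed it at rank 10 of the 12137 genes by p in that comparison. Both calls were kept under each of the 20 alternatives run for them.

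The neighbors in this order were compared as well. LA lay below CCM by a log2 fold change of -1.28 (SE 0.179, adjusted p = 0.0115 by edgeR's test), a call for Ackr3 that was lost whenever a CCM or an LA library was left out. TCM lay below LA by -1.71 (SE 0.250, adjusted p = 0.000905). The lower level in CCM than in vehicle did not pass (log2 fold change -0.59, SE 0.158, adjusted p = 0.103), although its unadjusted p was 0.00338 and for Ackr3 it passed in 5 of 20 alternatives, among them the fits without either TCM library. The fall of Ackr3 under TCM, taken against its own control CCM, exceeded the fall under LA, taken against vehicle, by -1.12 on the log2 scale (SE 0.301, adjusted p = 0.0373). For Ackr3, that difference was lost without either vehicle library, without either CCM library, without LA replicate 2, without TCM replicate 1 and when tested against the fold threshold itself, and its adjusted p reached 0.167.

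**Figure D1:**
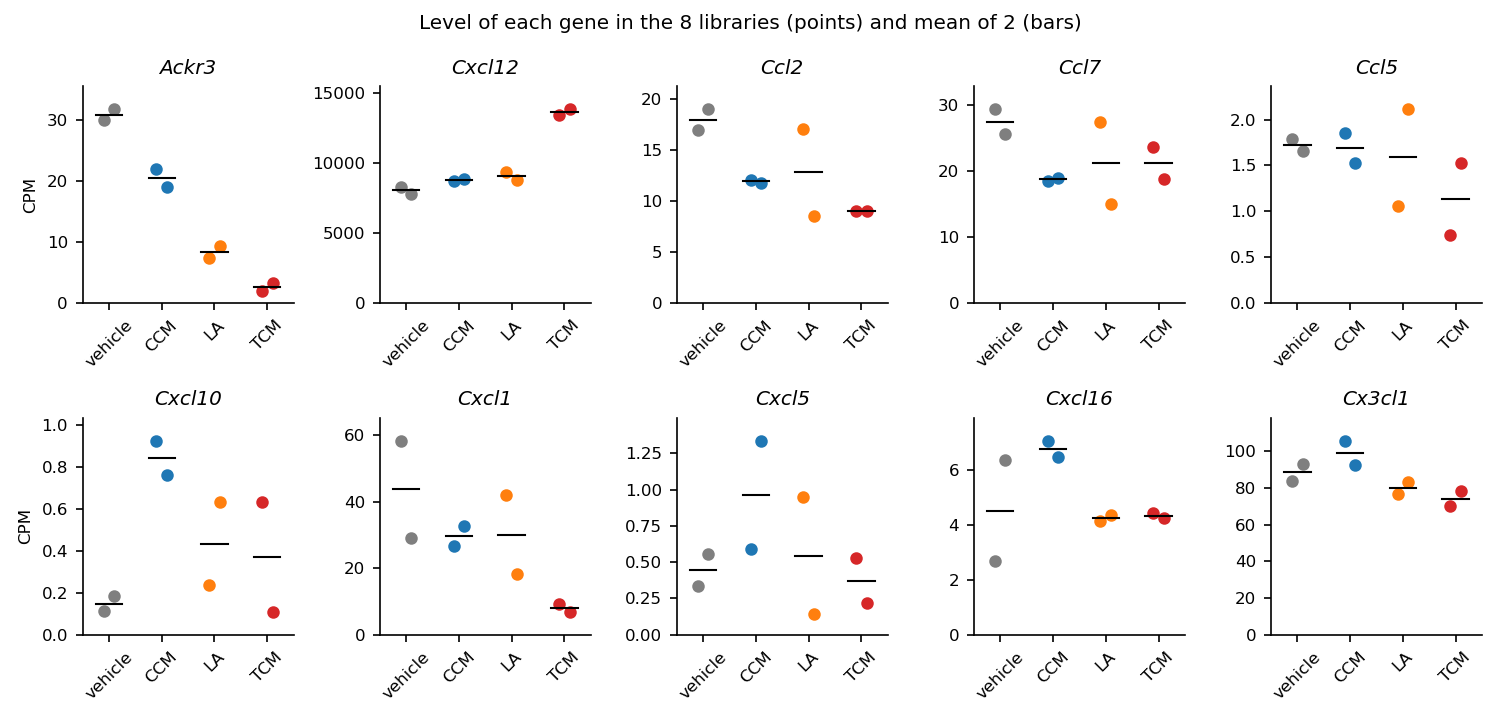
Levels of the 10 genes in CPM (vertical axes, each from 0) in the vehicle, CCM, LA and TCM libraries; points are the 2 libraries of a group and bars their mean. Ackr3 steps down from 29.9 and 31.7 CPM in vehicle to 1.89 and 3.27 CPM in TCM without overlap, Cxcl12 is highest in TCM, and Cxcl10 and Cxcl5 stay at or under 14 counts.

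Cxcl12 (chr6:117168535-117181367, plus strand), the homeostatic ligand that Ackr3 and Cxcr4 share, was among the most abundant transcripts of these cells and ranked 3 to 5 by count in each library. It stood at 8266 and 7791 CPM in vehicle, 8706 and 8811 CPM in CCM, and 9335 and 8757 CPM in LA. TCM cells had 13407 and 13808 CPM, above all 6 other libraries. Cxcl12 rose 1.55-fold in TCM against CCM (log2 fold change 0.64, SE 0.108, adjusted p = 0.0019 by edgeR's test). Its 95% interval began at 0.397, close to the fold threshold. The call was lost in 3 of 20 alternatives, when tested against the fold threshold itself and with thresholds of 0.68 and 1. Between LA and vehicle the log2 fold change of Cxcl12 was 0.17 (95% interval -0.07 to 0.41, adjusted p = 0.545), and between CCM and vehicle 0.13 (95% interval -0.11 to 0.36). Both vehicle libraries of Cxcl12 lay below those of CCM and LA, which overlapped each other, but no difference among these 3 groups passed the test. TCM exceeded LA by a log2 fold change of 0.59 (adjusted p = 0.00357 by edgeR's test), a call lost in the same 3 alternatives. The TCM effect on Cxcl12 was larger than the LA effect by 0.46 on the log2 scale without passing the test (SE 0.153, adjusted p = 0.0821), and it passed in 5 of 19 alternatives.

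Ackr3 and Cxcl12 moved in opposite directions under TCM, and the ratio of ligand to receptor transcript, both divided by exonic length, was taken within each library. It was 113 and 101 in vehicle, 163 and 190 in CCM, 522 and 386 in LA, and 2898 and 1729 in TCM. The groups did not overlap in this ratio, but they did not overlap in Ackr3 alone either, so the ratio is not separate evidence. As transcript levels, these values do not measure the proteins.

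**Figure D2:**
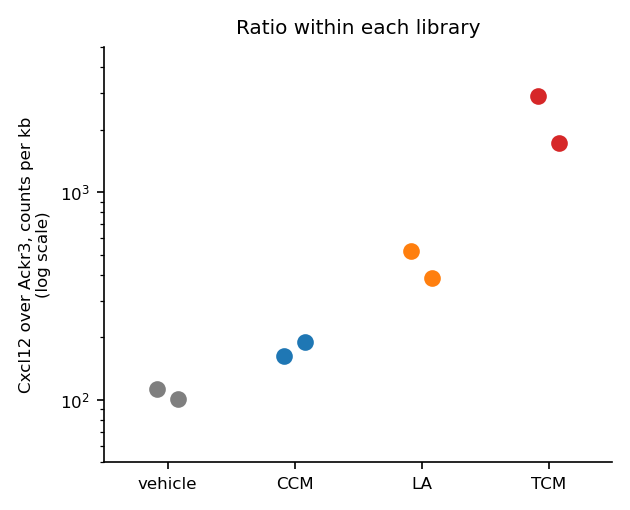
Ratio of Cxcl12 to Ackr3 counts per kilobase of exon (log axis) in each library of vehicle, CCM, LA and TCM, 2 points per group. The ratio lies at 101 and 113 in vehicle and at 1729 and 2898 in TCM, with CCM and LA between them.

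Cxcl1 (chr5:90891241-90893115, plus strand) attracts neutrophils through the receptor Cxcr2. Vehicle cells had 58.3 and 29.1 CPM, CCM cells 26.5 and 32.6 CPM, and LA cells 41.9 and 18.2 CPM, so that these 3 groups overlapped. TCM cells had 9.26 and 6.65 CPM, below every other library. Cxcl1 fell 3.70-fold in TCM against CCM (log2 fold change -1.89, SE 0.432, adjusted p = 0.0102 by edgeR's test). The call for Cxcl1 was lost without CCM replicate 2, without either TCM library and with no filter on low counts, with an adjusted p of up to 0.299. LA against vehicle gave -0.57 (95% interval -1.37 to 0.22, adjusted p = 0.546), and the TCM and LA effects differed by -1.31 without passing (SE 0.567, adjusted p = 0.184). For Cxcl1 that difference passed in 2 of 19 alternatives, without LA replicate 2 and with a replicate block in which the CCM numbers were crossed, where its adjusted p went down to 0.00611.

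Cxcl5 (chr5:90759360-90761624, plus strand), another neutrophil chemokine, had 3 and 6 counts in vehicle, 7 and 14 in CCM, 8 and 2 in LA, and 5 and 2 in TCM. Both CCM libraries lay above both vehicle and both TCM libraries in Cxcl5, while LA overlapped every other group. With no filter on low counts, edgeR's test gave an adjusted p of 0.251 for TCM against CCM and 0.795 for CCM against vehicle. No difference was detectable at this depth. Reads of stretches that Cxcl1 shares with its paralogs could have been misassigned or left out by the counting, which was not tested and leaves the level of Cxcl1 uncertain. Among these paralogs, Cxcl2 had 0 counts in every library, and Cxcl3 had 2 in LA replicate 1 and 0 elsewhere.

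Cx3cl1 (chr8:94772009-94782427, plus strand) is made as a membrane-anchored protein that binds Cx3cr1 on monocytes and lymphocytes, and is shed by metalloproteases. It was measured at 83.9 and 93.3 CPM in vehicle, 106 and 92.7 in CCM, 76.7 and 83.5 in LA, and 70.0 and 78.3 in TCM. TCM fell below CCM by a small margin, 1.34-fold, with no overlap (log2 fold change -0.42, SE 0.111, adjusted p = 0.0198 by edgeR's test). For Cx3cl1 the call was lost without CCM replicate 1, without TCM replicate 1 and with only the compared libraries in the fit, and the lowered level was close to the fold threshold. TCM against vehicle did not pass for Cx3cl1 (-0.26, 95% interval -0.50 to -0.01, adjusted p = 0.134), and LA against vehicle gave -0.14 (95% interval -0.39 to 0.10). Both LA libraries also lay below both CCM libraries, without passing (-0.31, 95% interval -0.55 to -0.07, adjusted p = 0.319 by edgeR's test). TCM against LA gave -0.11 for Cx3cl1 (95% interval -0.36 to 0.13, adjusted p = 0.531 by edgeR's test).

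Cxcl16 (chr11:70453983-70459984, minus strand), the other membrane-anchored chemokine and a ligand of Cxcr6 on T cells, was at 2.68 and 6.37 CPM in vehicle and 7.07 and 6.49 CPM in CCM. It was at 4.14 and 4.37 CPM in LA and at 4.42 and 4.25 CPM in TCM. Both TCM libraries lay below both CCM libraries, but the log2 fold change of -0.65 did not pass (95% interval -1.32 to 0.03, adjusted p = 0.164). An exon of Zmynd15 lies on the opposite strand over Cxcl16. The libraries were directional, but no source used here states whether strand was used in counting. Reads of the pair may therefore have been mixed, which leaves the count of Cxcl16 uncertain.

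Ccl2 and Ccl7 are neighboring monocyte chemokine genes and both bind Ccr2. Ccl2 (chr11:82035571-82037453, plus strand) was at 17.0 and 19.0 CPM in vehicle, 12.1 and 11.7 in CCM, 17.1 and 8.52 in LA, and 9.05 in each TCM library. CCM against vehicle gave -0.59 for Ccl2 (adjusted p = 0.339 by edgeR's test). It passed in 2 of 20 alternatives, with no filter on low counts and with only the compared libraries in the fit. TCM was lower than vehicle by -0.99 on the log2 scale (SE 0.263, adjusted p = 0.0221 by edgeR's test), but not called against CCM (-0.40, 95% interval -0.995 to 0.20, adjusted p = 0.330) or for LA against vehicle (-0.55, 95% interval -1.10 to 0.0014). The call of Ccl2 in TCM against vehicle was lost without any 1 of the vehicle or TCM libraries. Without LA replicate 1, LA against vehicle gave a log2 fold change of -1.08.

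Ccl7 (chr11:82045712-82047525, plus strand) was at 29.3 and 25.6 CPM in vehicle, 18.5 and 19.0 in CCM, 27.4 and 14.9 in LA, and 23.7 and 18.7 in TCM. No comparison of Ccl7 passed in the fit used here, with 0.18 for TCM against CCM (95% interval -0.34 to 0.70) and -0.41 for LA against vehicle (95% interval -0.92 to 0.09). CCM against vehicle gave -0.55 for Ccl7 (adjusted p = 0.343) and passed in 2 of 20 alternatives, with no filter on low counts and with only the compared libraries in the fit. The TCM and LA effects on Ccl7 differed by 0.59 (adjusted p = 0.305), or by 1.05 with an adjusted p of 0.0239 without LA replicate 1. In LA, replicate 1 had the higher value of Cxcl12, Ccl2, Ccl7, Cxcl1 and Cxcl5, and replicate 2 that of the other 5 genes. For Ccl2, Ccl7 and Cxcl1, and for the low-count genes Ccl5, Cxcl5 and Cxcl10, the LA libraries lay farther apart than the means of LA and vehicle. Ccl2, Ccl7 and related genes resemble each other, and reads shared between them may have been misassigned or left out by the counting. Of the related genes, Ccl8 and Ccl12 had 0 counts in every library and Ccl11 had 0 to 9.

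Ccl5 and Cxcl10 are chemokines for T cells that inflammatory and interferon signals induce. Ccl5 (chr11:83525778-83530518, minus strand) was low, at 1.78 and 1.66 CPM in vehicle, 1.85 and 1.53 in CCM, 1.06 and 2.11 in LA, and 0.737 and 1.53 in TCM. Its intervals were wide, from -1.57 to 0.39 on the log2 scale for TCM against CCM and from -0.91 to 0.86 for LA against vehicle, and nothing passed. Cxcl10 (chr5:92346638-92348889, minus strand) had 1 and 2 counts in vehicle, 11 and 8 in CCM, 2 and 9 in LA, and 6 and 1 in TCM. Art3 covers Cxcl10 with an exon on the opposite strand, and no difference was detectable at this depth for TCM against CCM or LA against vehicle. In CPM, both CCM libraries of Cxcl10 (0.926 and 0.764) lay above all vehicle, LA and TCM libraries, which reached at most 0.634. With no filter on low counts, edgeR's test gave an adjusted p of 0.125 for CCM against vehicle. It gave 0.382 for TCM against CCM (log2 fold change -1.15).

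Per kilobase of exon (RPKM), the 10 genes spanned a wide scale, with a median over the 8 libraries of 1074 for Cxcl12, 26.6 for Ccl7, 21.3 for Cx3cl1, 14.8 for Cxcl1, 10.5 for Ccl2 and 4.23 for Ackr3. Ccl5 and Cxcl16 followed at 1.66 and 1.45 RPKM, and Cxcl5 and Cxcl10 at 0.290 and 0.193 RPKM. Neighboring genes in this order overlapped in their ranges over the libraries, except that the lowest Cxcl12 value (953 RPKM) was above the highest of Ccl7 (36.6 RPKM) and the lowest Cxcl16 value (0.886 RPKM) above the highest of Cxcl5 (0.717 RPKM). Fewer cells of a kind and less RNA per cell cannot be told apart in such bulk samples.

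Across the comparisons, 4 of the 8 tested genes were called in TCM against CCM, 1 higher and 3 lower, where 19.1% of all genes tested were called, 8.83% higher and 10.2% lower. Without TMM factors the split over all genes was 651 higher and 2039 lower in place of 1072 and 1242, and the same number of the 8 was called. Their median log2 fold change was -0.50, beside 0.00032 over all genes. In LA against vehicle only Ackr3 was called among the 8, where 2.55% of all genes were called, 1.31% higher and 1.24% lower, and the median of the 8 was -0.28. When the TCM effect was set against the LA effect, Ackr3 alone passed among the 8, where 10.4% of all genes did. In CCM against vehicle edgeR called 0 of the 8 and DESeq2 also 0, with 3 at an unadjusted p under 0.05 (Ackr3, Ccl2 and Ccl7) and 1.3% of all genes called. TCM against vehicle called 4 (Cxcl12 higher, Ackr3, Ccl2 and Cxcl1 lower, 17.5% of all genes), LA against CCM called Ackr3 (0.626%), and TCM against LA called 3 (Cxcl12 higher, Ackr3 and Cxcl1 lower, 16.1%). Comparisons that use the same group share its libraries and are not separate evidence.

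**Figure D3:**
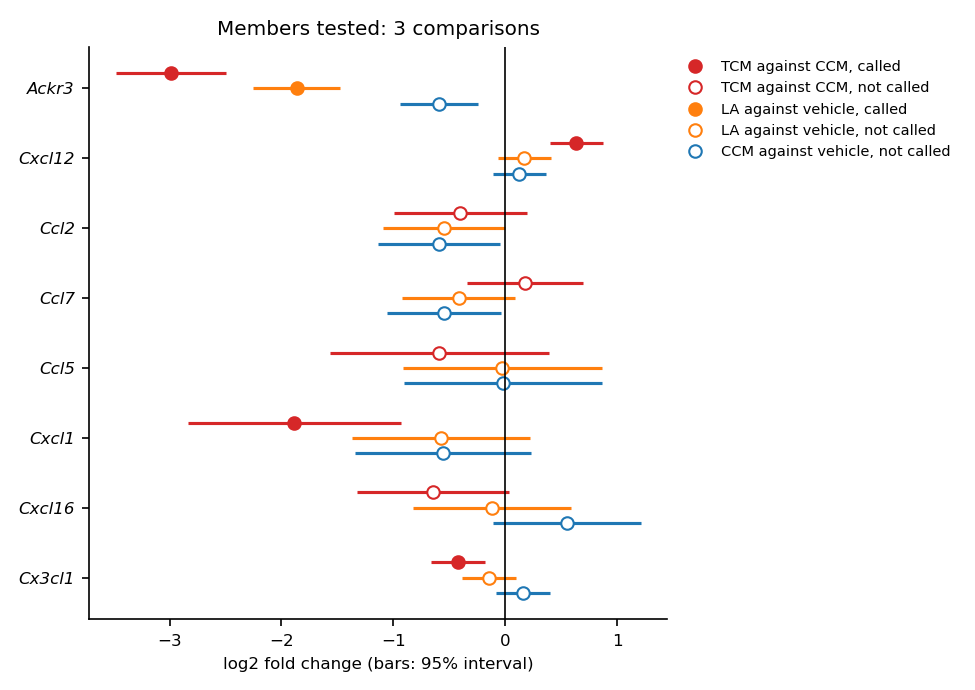
Log2 fold change (horizontal axis, bars are 95% intervals) of the 8 tested genes in TCM against CCM, LA against vehicle and CCM against vehicle; filled points were called and open points were not. Ackr3 lies at -2.99 in TCM and -1.86 in LA, and in CCM against vehicle every point is open.

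**Figure D4:**
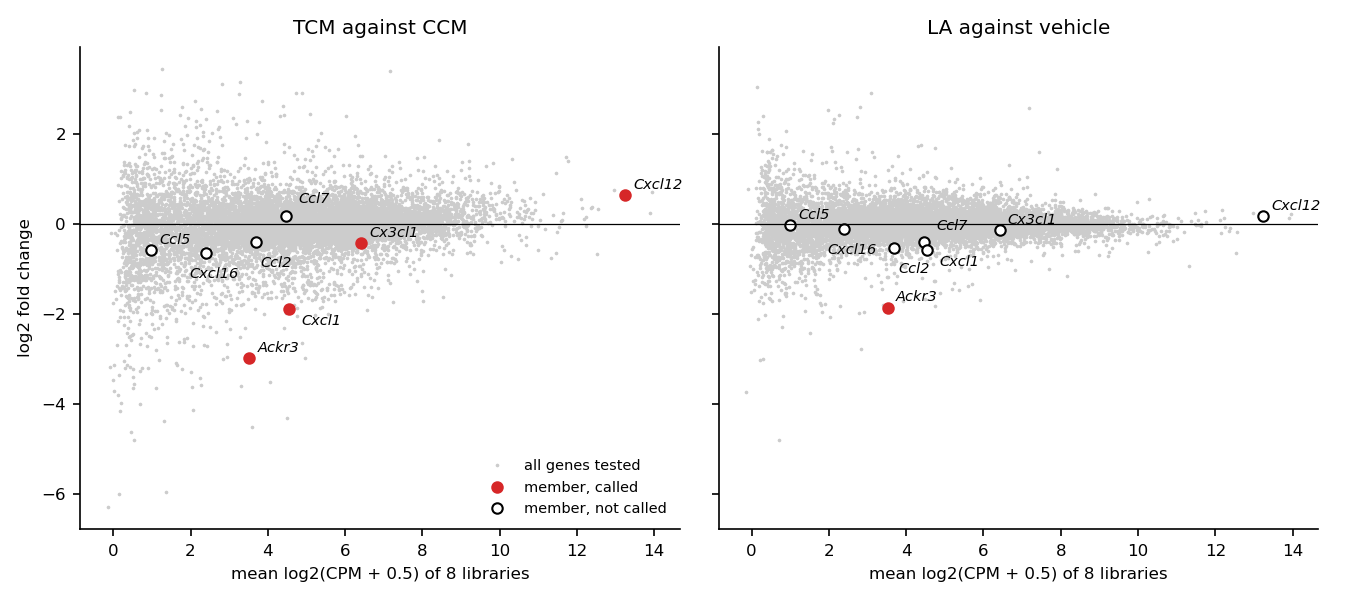
Log2 fold change (vertical axis) against mean log2(CPM + 0.5) of the 8 libraries (horizontal axis) for all 12137 genes tested (grey) and the 8 genes of interest (red when called, open when not), with TCM against CCM on the left and LA against vehicle on the right. Ackr3 lies at the lower edge of the cloud in both panels, and Cxcl12 lies at the far right.

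Other genes of the chemokine system were counted from lists by role. Of 29 other chemokine ligands, 10 were at 0 in all libraries and 6 were tested. In TCM against CCM, Ccl9, a myeloid cell chemokine, rose (log2 fold change 0.98, adjusted p = 0.00753), while Cxcl15, a mouse neutrophil chemokine, fell (-1.61, adjusted p = 0.00146) and Pf4, platelet factor 4, fell (-1.75, adjusted p = 0.0134), and the other 3 were not called. Pf4 was at 0.641 ± 0.136 CPM in TCM (SD, n = 2), on 5 and 7 counts. In LA against vehicle Cxcl15 alone was called of the 6, with 18.6 ± 0.108 CPM in vehicle and 4.57 ± 1.61 CPM in LA (SD, n = 2) and a log2 fold change of -1.96 (adjusted p = 0.00126).

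Of 23 other chemokine receptors, 22 had at most 3 counts in every library, and Cxcr4, the signaling receptor of Cxcl12, was at 0 in all 8. Only Ackr4, a scavenger of Ccl19 and Ccl21, was tested. Ackr4 fell in TCM against CCM (log2 fold change -2.50, SE 0.693, adjusted p = 0.0254) from 14 to 35 counts per CCM library to 3 and 4 counts in TCM, and it was not called in LA. Exons of Acad11 lie opposite to Ackr4, which leaves its count uncertain.

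Of 27 genes that cut, capture or display chemokines, 22 were tested. In TCM against CCM 5 rose, 5 fell and 12 were not called, with a median log2 fold change of 0.08. Cd74, which also serves as a receptor for the chemokine-like factor Mif, fell (-2.06, adjusted p = 0.00021). Mmp14, a membrane metalloprotease that can cut chemokines, fell from 1332 ± 2.72 to 739 ± 8.72 CPM (SD, n = 2, log2 fold change -0.85, adjusted p = 0.00225), and Sdc2, a heparan sulfate proteoglycan of the surface, rose (0.50, adjusted p = 0.00358). In LA against vehicle 1 of the 22 was called, Rhbdf2, which carries the sheddase Adam17 to the surface (-1.10, adjusted p = 0.00385).

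The NF-kappaB list had 31 of 33 genes tested, of which 4 rose and 2 fell in TCM against CCM and 25 were not called (median -0.01). Tnfrsf1b, a receptor for tumor necrosis factor (0.57, adjusted p = 0.00407), and the adaptor Myd88 (0.55, adjusted p = 0.0059) rose, while Relb, of the noncanonical arm, fell (-0.62, adjusted p = 0.00724). In LA against vehicle only Il1r1, the interleukin 1 receptor, was called of the 31 (0.67, adjusted p = 0.0161). Of 19 tested interferon signaling factors, 7 rose and 2 fell in TCM against CCM (median 0.14), and in LA against vehicle 3 rose and 16 were not called (median 0.01).

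Those that rose in TCM included the transcription factors Stat2 (log2 fold change 1.71, adjusted p = 0.000137) and Irf9 (1.45, adjusted p = 0.000102), which take part in binding the interferon-stimulated response element. In LA against vehicle, Irf9 (0.76, adjusted p = 0.0332) and Irf7 (1.65, adjusted p = 0.0466) were among those that rose. Beside these, Cxcl10, whose window holds that element, had 1 to 11 counts in every library. Irf9, Irf7 and Myd88 overlap exons of other annotated genes, so that their counts are uncertain by those reads. Counts in each list can be set beside the percentages of all genes given above, and they are not tests of the list.

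Among marker genes, Pdpn rose (0.44, adjusted p = 0.0108) and Pdgfrb fell (-0.47, adjusted p = 0.00926) in TCM against CCM, and 5 of the 7 tested FRC markers were not called. Of the endothelial markers, Tek, the receptor of Angpt1, was the only one tested and fell (-1.84, adjusted p = 0.0283 by edgeR's test). The list summed to 4.13 to 4.68 CPM in CCM and 2.63 to 2.83 CPM in TCM. Tek gave most of the CCM sum, with 37 and 28 counts in CCM and 9 and 6 in TCM. The other markers did not share its fall. Kdr had 3 and 8 counts in CCM and 7 and 12 in TCM, and Pecam1 had 4 and 5 in both groups. Cdh5 had 3 and 7 counts in CCM and 5 and 2 in TCM, and Lyve1 and Prox1 were at or near 0. The part of other cells in the changes of Ackr3 and the chemokines was not tested.

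The patterns most like that of Ackr3 over the 8 libraries, by root mean square difference of centered log2(CPM + 0.5), were those of Il33 (0.192), Angpt1 (0.242) and Pi16 (0.266), where Ackr3 itself ranged over 3.75. Il33, an alarmin cytokine, went from a mean of 69.8 CPM in vehicle to 51.5 in CCM, 23.96 in LA and 8.16 in TCM. Angpt1 went from 10.3 to 7.44, 2.49 and 0.590 CPM, and Pi16, a peptidase inhibitor of fibroblasts, from 12.7 to 8.43, 3.48 and 0.694 CPM in the same order. Nearest to Cxcl12, which ranged over 0.826, were Tnfaip2 (0.0457), Rhobtb3 (0.0568) and Zc2hc1a (0.0627), and the mean of Tnfaip2 was 67.4 CPM in vehicle, 71.7 in CCM, 75.8 in LA and 114 in TCM. These genes were picked for their likeness, and no test is given.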

How the data were processed

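RNA of the 8 cultures was converted to directional poly(A) libraries. The authors aligned reads with STAR 2.7.0a to GRCm38 and counted them per gene with featureCounts (Subread 2.0.1). The deposited table holds raw counts for 55367 genes, and 0 per-sample columns were left unused. A second table, named as normalized, held 12137 genes whose values equal the raw counts in 100% of cases and was not used.

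Counts were fitted with edgeR 4.0.16 (quasi-likelihood, TMM factors 0.938 to 1.04, 1 mean per condition, all 8 libraries) keeping, as the study did, genes that reached 10 counts in 3 or more libraries. Alternatives, DESeq2 1.42.0 among them, were run for each comparison. The fit was checked on counts simulated with the same spread in every gene and group, so the check does not cover groups of unequal spread. Lengths and positions came from GENCODE M21, not from the annotation the authors counted on (Ensembl 100), so RPKM values are approximate. All 10 genes are named, as are the 3 called genes of each list with the smallest adjusted p in TCM against CCM and in LA against vehicle, and the 3 genes nearest in pattern to Ackr3 and Cxcl12, except 1 gene that is not reported here. Genes and lists were chosen with earlier results of these data known. Replicate numbers were those of the sample titles and did not pair libraries in the main fit. They were used only as a block in alternatives and to correlate same-numbered libraries. The 2 libraries of each group differed by more than sampling noise. Chi-square over degrees of freedom was 4.92 in vehicle, 3.31 in CCM, 7.45 in LA and 20.6 in TCM, while the fit gave all groups a shared estimate of spread.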

Additional observations from a re-analysis of the deposited data

Results flagged for a closer look

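The fall of Ackr3 differed between the media: the log2 fold change of TCM against CCM was lower than that of LA against vehicle by -1.12 (SE 0.301, adjusted p = 0.0373 by edgeR's test of the difference). It was singled out because the effects of the 2 treatments, each against its own control, differed by a test of that difference. For Ackr3 the difference ranged from -1.57 to -0.78 over 19 alternatives and lost its call in 7 of them, which were 6 of the 8 fits with 1 library left out and the test against the fold threshold itself, with an adjusted p of up to 0.167. The cause was not tested.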

How the results depend on the processing

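Over the alternatives, no log2 fold change that was called turned its direction. Of the results by gene, comparison and setting, called or not, 1044 stayed on their side of the threshold, 19 became called and 42 lost their call. The 1044 include results that were not called in the main fit and could not lose a call, so the 42 are not to be read against them. The cause was not tested. For TCM against CCM the number of the 8 genes called, 4 in the report, was 2 with glmTreat against 0.39, 2 beyond 0.68 and 2 beyond 1, and 2 to 4 with 1 library left out, where the lone library of a group is taken to vary like the rest. For LA against vehicle it was 1 to 2 with 1 library left out. For the difference between the effects it was 2 with DESeq2, 2 with no filter, 0 with glmTreat and 0 to 2 with 1 library left out. For CCM against vehicle it was 3 with no filter, 3 with only the compared libraries and 0 to 1 with 1 library left out. For TCM against vehicle it was 2 beyond 1 and 2 to 4 with 1 library left out, for LA against CCM 0 with glmTreat and 0 to 1, and for TCM against LA 2 to 4. With the replicate number as a block (replicate block) the counts did not move: 4 for TCM against CCM, 1 for LA against vehicle, 1 for the difference, 0 for CCM against vehicle, 4 for TCM against vehicle, 1 for LA against CCM and 3 for TCM against LA, with 2367 against 2314 calls over all genes for TCM against CCM and 356 against 310 for LA against vehicle; deviations of same-numbered libraries correlated at 0.124 to 0.386 among vehicle, LA and TCM and at -0.278 to -0.0522 between CCM and each of these. Crossing the CCM numbers in the block, an alternative chosen after seeing the data, gave 3 for the difference and 1 for CCM against vehicle. Without TMM factors the median of all genes in TCM against CCM moved to -0.14 and 24.2% of 2690 calls were higher, against 46.3% of 2314, with the same number of the 8 genes called. Over all genes and alternatives, calls ranged from 760 to 2864 for TCM against CCM (2314 in the report), 56 to 656 for LA against vehicle (310), 625 to 2540 for the difference (1268), 0 to 679 for CCM against vehicle (158), 668 to 2904 for TCM against vehicle (2121), 1 to 410 for LA against CCM (76) and 623 to 2896 for TCM against LA (1955). Depth limits Cxcl10, Cxcl5 and Ccl5, whose counts are low.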

Other observations

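Cxcl13, the B cell chemokine that stromal cells of the follicle make, had 43 counts in CCM replicate 1 and 0 in the other 7 libraries. It was the only gene of the table with at least 10 counts in 1 library and 0 in all the others. Cxcl14 had 6 counts in the same library and 0 elsewhere, and the single count of Ccl19 lay there too. These genes were chosen after their values were seen.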
